A study of Mus musculus with 6 samples.

Results

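The collagen genes were followed in whole lung of mice that expressed a dominant-negative form of BMPR2, the bone morphogenetic protein type II receptor, under the smooth muscle promoter SM22. They were taken as every probe set whose only gene symbol on the platform was Col, a number, a and a number. This gave 42 of the 18193 genes with a single symbol, and 82 of the 45037 probe sets of the array. They were divided by structure into 11 fibrillar genes (21 probe sets), 8 basement membrane genes (15 probe sets) and 23 other genes (46 probe sets). Col21a1, Col6a6 and Col28a1 had no probe set with a single symbol and were not analysed here.

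The series held 6 Affymetrix arrays in 3 groups of 2, and each array carried lung RNA pooled from 3 mice, 1 pool a sex in every group. The labels gave the female control pool only as FVB/N and the male control pool as carrying the SM22-rtTA transactivator alone. The series description gave transactivator-only mice as the controls. The other pools were inducible SM22-dnBMPR2 females and males with the transgene switched on for 1 week or for 8 weeks, and right ventricular pressure was described as raised in those mice when they were killed. The transgene was driven by a smooth muscle promoter while the RNA came from all lung cells, so in these bulk samples fewer cells of a type and less RNA per cell cannot be told apart. One control pair served both durations. The age of the mice, the strain of the transgenic mice and the inducing agent were not given in the sources used here.

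Collagens are trimers wound into a triple helix, and the fibrillar types are secreted as procollagens, trimmed outside the cell and crosslinked by lysyl oxidases. Fibrillar collagens (types I, III and V) build the interstitial and vessel wall fibres that limit lung stretch. Type IV forms the basement membrane network beneath epithelium and endothelium, and type VI forms beaded filaments around cells. Lung fibroblasts, smooth muscle cells and pericytes make most fibrillar collagen, while epithelial and endothelial cells also make type IV chains.

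Some collagen genes lie side by side, and Col4a1 and Col4a2, the ubiquitous type IV chains, start from one shared stretch on opposite strands. RefSeq promoter windows (GRCm38.p6, 250 bases before to 50 after each start) matched 33 of the 42 genes. The window of Col4a2 at chr8:11312555-11312854 (plus strand) overlapped that of Col4a1 at chr8:11312777-11313076 (minus strand) by 78 bases. Windows are shown for Col4a2, whose differences from control, with those of Col4a1, lay between -0.07 and 0.16, for Col1a2 and Col3a1 as fibrillar genes that stood higher at 1 week, and for Col15a1, the collagen with the largest 1 week difference. They are chr6:4505368-4505667 for Col1a2, chr1:45311288-45311587 for Col3a1 and chr4:47207762-47208061 for Col15a1, all on the plus strand. Capitals mark the bases shared with the Col4a1 window in Col4a2, and any CCAAT or GGGCGG on either strand in the rest.
Col4a2: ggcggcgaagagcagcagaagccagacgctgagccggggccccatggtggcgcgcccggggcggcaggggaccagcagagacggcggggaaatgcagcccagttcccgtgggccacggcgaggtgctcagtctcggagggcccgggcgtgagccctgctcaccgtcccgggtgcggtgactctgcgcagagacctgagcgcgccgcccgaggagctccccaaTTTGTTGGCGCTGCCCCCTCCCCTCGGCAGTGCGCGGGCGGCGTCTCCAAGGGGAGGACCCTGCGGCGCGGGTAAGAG
Col1a2: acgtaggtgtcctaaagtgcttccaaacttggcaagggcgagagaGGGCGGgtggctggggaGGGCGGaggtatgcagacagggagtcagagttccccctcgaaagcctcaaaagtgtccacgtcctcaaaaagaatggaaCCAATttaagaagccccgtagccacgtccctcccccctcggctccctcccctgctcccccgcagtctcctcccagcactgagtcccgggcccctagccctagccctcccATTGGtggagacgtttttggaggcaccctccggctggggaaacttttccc
Col3a1: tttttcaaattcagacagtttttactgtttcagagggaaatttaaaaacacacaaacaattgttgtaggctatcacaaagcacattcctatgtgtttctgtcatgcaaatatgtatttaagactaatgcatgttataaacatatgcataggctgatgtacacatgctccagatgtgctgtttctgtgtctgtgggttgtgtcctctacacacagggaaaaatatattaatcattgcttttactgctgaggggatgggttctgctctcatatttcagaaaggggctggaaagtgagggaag
Col15a1: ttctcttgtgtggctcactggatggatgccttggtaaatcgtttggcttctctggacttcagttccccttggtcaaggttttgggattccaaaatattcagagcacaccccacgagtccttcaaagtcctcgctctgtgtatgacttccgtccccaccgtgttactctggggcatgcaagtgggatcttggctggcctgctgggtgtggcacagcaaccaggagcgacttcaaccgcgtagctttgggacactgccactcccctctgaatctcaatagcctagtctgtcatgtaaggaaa

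Neither the Col3a1 nor the Col15a1 window held CCAAT or GGGCGG, while the Col1a2 window held each of them 2 times. GGGCGG (the GC box) stood in 18 of the 29 windows of collagen genes measured here (62.1%), against 35.7% of all 32851 promoter windows of this length. It was in 5 of 6 fibrillar, 5 of 8 basement membrane and 8 of 15 other windows. The 29 windows came from 26 genes and are not independent. They were limited to genes above the limit for dim probe sets, while the windows of all genes were not, so the 2 sets are not alike. Col6a2 had overlapping windows that each held GGGCGG, and the bases shared by the Col4a1 and Col4a2 windows hold it as well. CCAAT was in 37.9% of the collagen windows against 37.4% of all, CAGAC (the core Smad box) in 51.7% against 49.6%, and TATAAA in 13.8% against 13.6%. All motifs were searched on both strands, and neighbouring matches of different motifs can share end bases. A match is a description of the letters and was not tested as a binding site.

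Values are log2 intensity after quantile normalization, and they compare pools for 1 probe set, not one gene's level with another's. The lung label was checked against marker lists of alveolar type 1 and type 2 cells, 6 genes each, of which 0 were at the lower limit of measurement on all arrays. Their summed deposited intensities were 25336 to 27918 and 27279 to 34221 across the 6 pools. Median deposited intensity ran from 50.49 to 63.41, with both 8 week arrays lowest. Of the 82 collagen probe sets, 52 (32 genes) had a mean above the limit for dim probe sets, and none of these touched the floor of 3.95 on any array. The other 30 probe sets included every probe set of 10 genes. These were the fibrillar genes Col2a1, Col11a1 and Col24a1, and Col9a2, Col9a3, Col10a1, Col19a1, Col26a1, Col6a4 and Col6a5. With 6 pools the precision of all comparisons is limited, since 2 pools against 2 cannot give an exact two-sided permutation p below 0.333.

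The 3 comparisons share pools: the control pair enters both comparisons with control, and the 1 week pair enters both the first and the last. In limma, 0 of the 52 collagen probe sets passed an adjusted p of 0.05 at 1 week against control, 0 at 8 weeks against control and 0 at 8 weeks against 1 week. The background of all probe sets called was 0%, 0.596% and 0%. At an unadjusted p below 0.05, 7 collagen probe sets (13.5%) stood out at 1 week against 5.5% of all, 16 (30.8%) at 8 weeks against 23%, and 12 (23.1%) between the durations against 18.5%. limma with a trended, robust spread called 0 collagen probe sets at 1 week (0.0111% of all), 4 at 8 weeks (7.69% of the collagens, 7.09% of all) and 4 between the durations (7.69%, against 2.78% of all). Plain least squares called 0 in each. No collagen difference below therefore passed the limma test used for calls, and their directions describe these pools.

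At 1 week, 6 of 8 fibrillar genes were higher than control in both sexes and 2 were lower in both, with a median difference of 0.34. The median of all 13215 genes measured was 0.03, with 32.6% higher and 21.1% lower in both sexes. The fibrillar median was 0.23 in females and 0.44 in males. Basement membrane genes had a median of 0.06, with 5 of 8 higher and 3 lower, and other collagens a median of 0.12, with 8 of 16 higher and 3 lower. At 8 weeks the medians were 0.18 (fibrillar, 5 higher and 1 lower), -0.21 (basement membrane, 2 higher and 5 lower) and -0.11 (other, 3 higher and 7 lower). The background there was 0.08, with 42.2% of genes higher and 25% lower in both sexes. By sex the 8 week fibrillar median was 0.05 in females and 0.30 in males, against 0.08 and 0.07 over all genes. Between 1 and 8 weeks the medians were -0.15, -0.16 and -0.15, with 18 of the 32 collagens lower in both sexes and 6 higher. Over all genes that median was 0.04, with 40.8% higher and 29.3% lower. Scaling moved these splits, for the collagens and for all genes. At 8 weeks, against 10 collagens higher and 13 lower here, centring each array on its median gave 14 higher and 7 lower (all genes 55.2% and 13.7%). The values as deposited gave 9 higher and 16 lower (all genes 24.4% and 41.8%). Between the durations centring gave 6 higher and 11 lower (all genes 49.0% and 17.9%), and the values as deposited 4 and 21 (28.4% and 40.8%). At 1 week centring gave 21 higher and 6 lower (39.6% and 15.5%), and the values as deposited 16 and 12 (22.5% and 30.9%). The fibrillar split at 1 week stayed at 6 and 2 under both, while 3 basement membrane genes were higher and 4 lower as deposited.

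**Figure D1:**
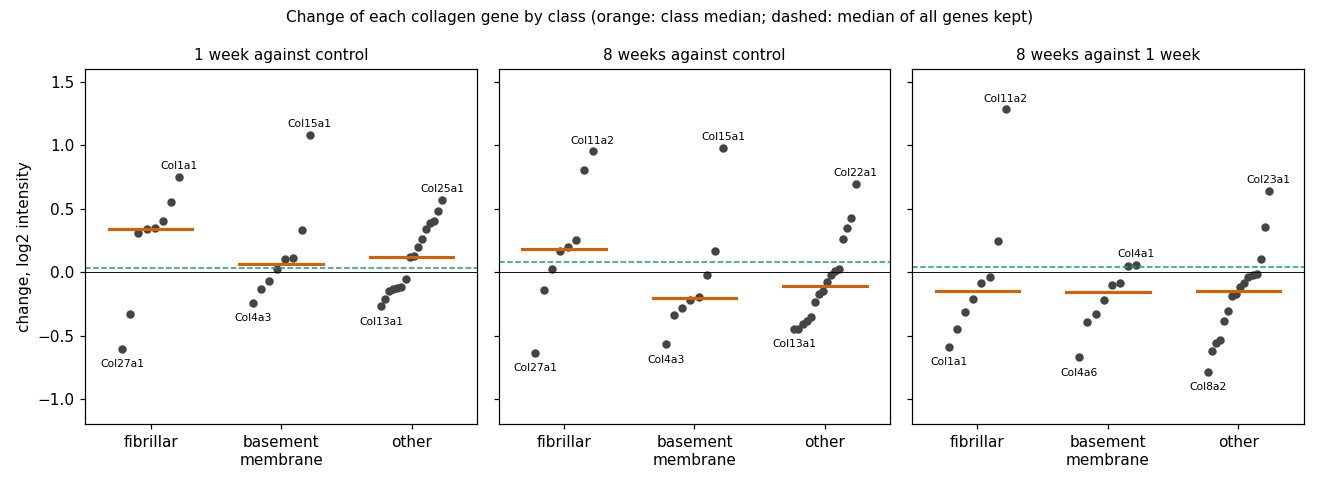
Difference in log2 intensity of each of the 32 measured collagen genes, by class, for 1 week against control, 8 weeks against control and 8 weeks against 1 week; points are genes, the orange bar is the class median and the green dashed line is the median of all genes. The fibrillar median is 0.34 at 1 week and 0.18 at 8 weeks, and the basement membrane median moves from 0.06 to -0.21.

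Type I collagen, the main tensile fibre, has 2 chains, encoded by Col1a1 and Col1a2. Col1a1 measured 9.77 (female) and 9.12 (male) in control, 10.09 and 10.30 at 1 week, and 9.78 and 9.44 at 8 weeks. Both 1 week pools lay above all other pools, and the 8 week pools overlapped control. The difference from control was 0.75 ± 0.23 (SE) at 1 week (1.68-fold, limma adjusted p = 0.894), made up of 0.33 in females and 1.18 in males. It was 0.16 ± 0.23 at 8 weeks (limma adjusted p = 0.709). Without the 1 week male pool the 1 week difference was 0.40, and without the female pool 1.10. Col1a2 measured 11.21 and 11.21 in control, 11.46 and 11.65 at 1 week, and 11.27 and 11.21 at 8 weeks. Its 1 week pools were again the highest, 0.34 ± 0.14 above control, and its 8 week difference was 0.03 ± 0.14.

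Type III collagen, which runs with type I in vessel walls and lung septa, is a homotrimer of the Col3a1 product. Col3a1 measured 12.04 and 11.87 in control, 12.26 and 12.47 at 1 week, and 12.08 and 12.22 at 8 weeks. The 1 week pools were highest and the 8 week pools lay between, above both controls. Its mean was 11.96 ± 0.13 (SD, n = 2) in control, 12.36 ± 0.15 at 1 week and 12.15 ± 0.10 at 8 weeks, so the differences from control were 0.40 ± 0.16 (SE) and 0.19 ± 0.16. Without the male control pool they were 0.23 and 0.021, and without the female control pool 0.58 and 0.37.

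Type V collagen is a minor fibrillar type that starts and limits the width of type I fibrils. Col5a2, the chromosome 1 neighbour of Col3a1, measured 9.41 and 9.43 in control, 9.68 and 9.83 at 1 week, and 9.64 and 9.71 at 8 weeks. All 4 transgenic pools lay above both controls, by 0.34 ± 0.13 at 1 week and 0.26 ± 0.13 at 8 weeks. Col5a1 measured 8.90 and 8.58 in control, 9.06 and 9.03 at 1 week, and 8.51 and 8.69 at 8 weeks. It was highest in the 1 week pools (0.31 ± 0.17 above control, or 0.11 without the male control pool) and overlapped control at 8 weeks (-0.14 ± 0.17). Col5a3, a less abundant chain, measured 4.98 and 5.62, then 5.52 and 6.19, then 5.40 and 6.81. Its pools overlapped in each comparison, although both sexes were higher than control at 1 week (0.56 ± 0.24) and at 8 weeks (0.80 ± 0.24, limma adjusted p = 0.153).

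**Figure D2:**
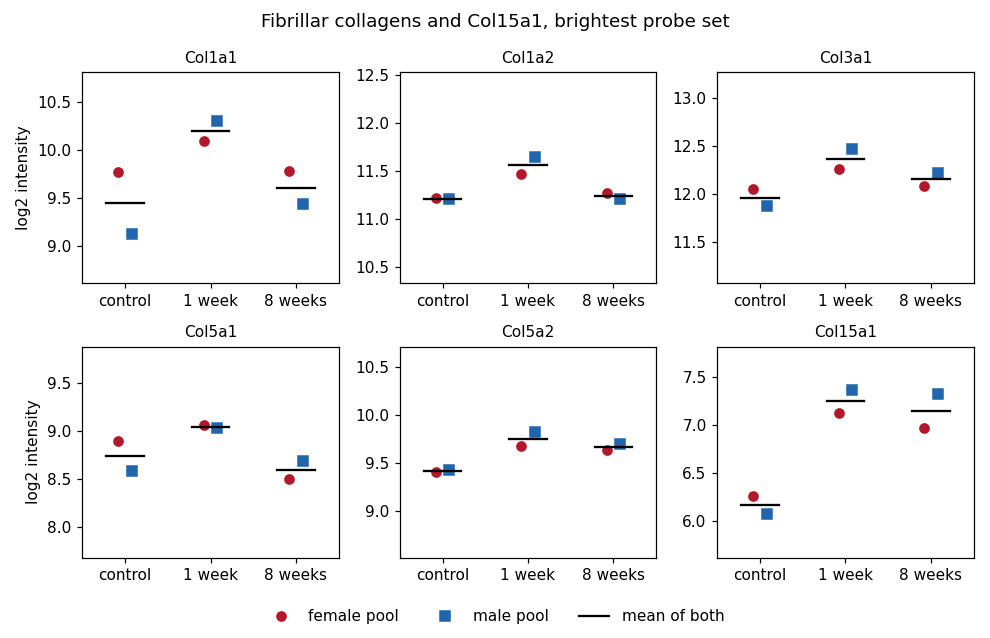
Log2 intensity of the brightest probe set of Col1a1, Col1a2, Col3a1, Col5a1, Col5a2 and Col15a1 in each pool (red circles female, blue squares male, line the mean of both), with the same span on each vertical axis. These genes were chosen with earlier results of these data known. In all 6 panels the 1 week pools lie above both controls, and at 8 weeks this holds for Col3a1, Col5a2 and Col15a1 but not for Col1a1, Col1a2 or Col5a1. Of the measured fibrillar genes not shown, Col27a1 lay below both controls at 1 week, and Col11a2 and Col5a3 overlapped control. The share of all genes whose pools separate in this way was not counted.

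The 8 week values of types I and III depended on the probe set. The second probe set of Col1a1 (1455494_at) measured 7.59 and 7.10 in control, 8.06 and 8.20 at 1 week, and 8.04 and 8.18 at 8 weeks. Here both durations lay above control, by 0.78 ± 0.21 at 1 week and 0.77 ± 0.21 at 8 weeks (limma adjusted p = 0.894 and 0.138), where the brightest Col1a1 probe set (1423669_at) gave 0.75 and 0.16. The second probe set of Col1a2 (1423110_at) measured 9.46 and 9.22, then 9.75 and 10.14, then 9.65 and 10.05. It stood 0.61 ± 0.21 above control at 1 week and 0.52 ± 0.21 at 8 weeks, with no overlap. The third measured probe set of Col1a2 (1446326_at) gave -0.46 ± 0.51 and -0.17 ± 0.51. For Col3a1 the second probe set (1427884_at) measured 8.60 and 8.59, then 9.16 and 9.93, then 8.98 and 9.63, and stood 0.95 ± 0.23 and 0.71 ± 0.23 above control. The probe sets of these genes thus differed in whether the 8 week pools resembled control or the 1 week pools, and the cause was not tested. The 3 probe sets of Col5a1 ranged from 0.31 to 0.45 at 1 week and from -0.14 to 0.38 at 8 weeks. Both Col5a2 probe sets were near each other, at 0.30 and 0.34 at 1 week and 0.26 and 0.34 at 8 weeks.

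**Figure D3:**
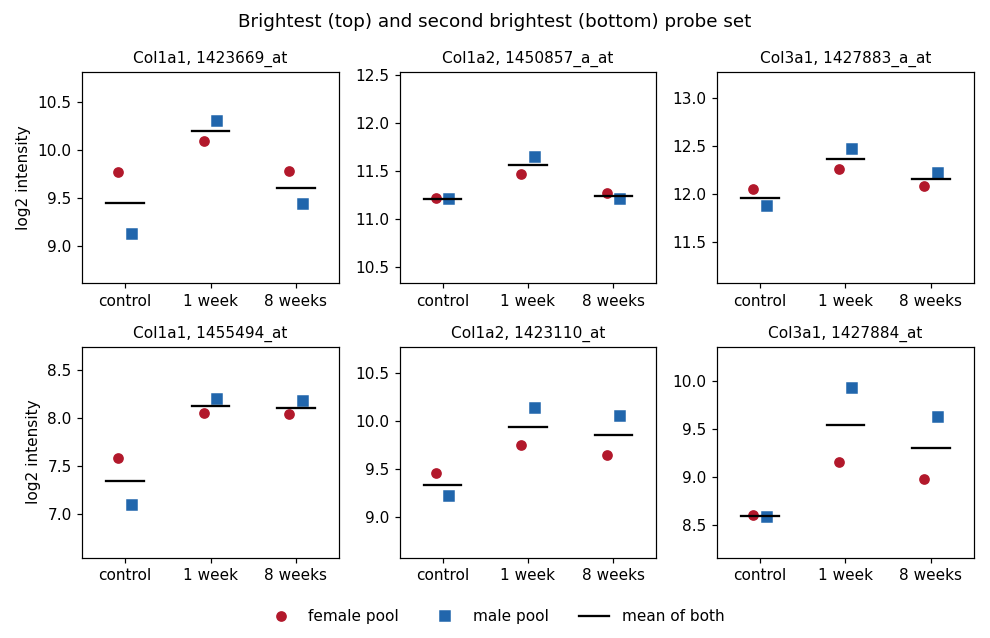
Log2 intensity in each pool for the brightest (top row) and second brightest (bottom row) probe set of Col1a1, Col1a2 and Col3a1, with circles for female pools, squares for male pools and a line for their mean. In the bottom row both 8 week pools of each gene stay above both controls, while in the top row those of Col1a1 and Col1a2 overlap control.

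The remaining fibrillar genes are best known from cartilage. Col27a1, a fibrillar chain of growing cartilage and other tissues, measured 7.76 and 7.65 in control, 7.20 and 7.01 at 1 week, and 7.03 and 7.11 at 8 weeks. All 4 transgenic pools lay below both controls. The differences were -0.60 ± 0.14 at 1 week (limma adjusted p = 0.894) and -0.64 ± 0.14 at 8 weeks (control 1.56-fold higher, limma adjusted p = 0.109), and a second probe set gave -0.31 and -0.49. Col11a2 measured 4.91 and 5.71 in control, 4.39 and 5.57 at 1 week, and 5.92 and 6.60 at 8 weeks. Both 8 week pools were the highest, 0.95 ± 0.17 above control (1.93-fold), with the lowest limma adjusted p of any collagen in that comparison, 0.0876. Against 1 week the difference was 1.28 ± 0.17 (2.43-fold, limma adjusted p = 0.106). The mean of Col11a2 was 5.31 in control and 4.98 at 1 week, against a limit of 5.15 for dim probe sets. Together those pools lay just under the limit, so Col11a2 was kept through its 8 week pools (mean 6.26). Its partner chains in cartilage, Col2a1 and Col11a1, and Col9a2 and Col9a3 read at most 4.60 in any pool, against a floor of 3.95. Of 9 cartilage markers 3 were measured. Acan, the cartilage proteoglycan aggrecan, was 1.51 ± 0.20 above control at 8 weeks (limma adjusted p = 0.0589), Comp was 0.06 ± 0.16 above and Chad gave -0.55 ± 0.25. The summed deposited intensity of the 9 markers was 616 and 399 in control, 813 and 562 at 1 week, and 407 and 409 at 8 weeks. Its part in the Col11a2 values was not tested.

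Col15a1 and Col18a1 encode multiplexin collagens that lie in or beside basement membranes and carry endostatin-like ends. Col15a1 measured 6.27 and 6.07 in control, 7.12 and 7.37 at 1 week, and 6.97 and 7.32 at 8 weeks. All 4 transgenic pools lay above both controls, and the durations overlapped. The difference was 1.08 ± 0.18 at 1 week (2.12-fold; 0.86 in females and 1.30 in males; limma adjusted p = 0.894) and 0.98 ± 0.18 at 8 weeks (1.97-fold; 0.70 and 1.25; limma adjusted p = 0.0912). With a trended, robust spread the 8 week difference of Col15a1 passed (limma adjusted p = 0.0404). Without 1 control pool the 8 week difference ran from 0.73 to 1.23. Col15a1 had a single measured probe set, so the array held no second reading of it. Col18a1 measured 9.04 and 9.11, then 9.06 and 9.31, then 8.83 and 8.76. It overlapped control at 1 week (0.11 ± 0.15) and lay below it at 8 weeks (-0.28 ± 0.15), where its second probe set gave -0.04.

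The type IV chains form 3 adjacent pairs in the genome. Col4a1 measured 11.78 and 11.67 in control, 11.82 and 11.83 at 1 week, and 11.92 and 11.86 at 8 weeks, differences of 0.10 ± 0.13 and 0.16 ± 0.13. Col4a2 measured 11.59 and 11.52, then 11.55 and 11.42, then 11.61 and 11.46, differences of -0.07 ± 0.13 and -0.02 ± 0.13. On these brightest probe sets the widest difference from control in a single sex was 0.19, in Col4a1 of the 8 week males, and the second Col4a1 probe set gave 0.11 and 0.15.

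Col4a3 and Col4a4, which pair with Col4a5 in the alveolar and glomerular basement membrane, stood below control on their brightest probe sets. Col4a3 measured 9.42 and 9.42, then 9.17 and 9.18, then 9.15 and 8.55. The 8 week difference was -0.57 ± 0.20 (limma adjusted p = 0.197), of which the male pool gave -0.87 and the female pool -0.27. On a second probe set the groups overlapped: females were 0.03 above control at both durations, and the males gave -0.81 and -1.52. Col4a4 measured 10.46 and 10.35, then 10.24 and 10.30, then 10.04 and 10.34, all 4 transgenic pools below both controls by small margins (-0.14 ± 0.16 and -0.22 ± 0.16). A dimmer Col4a4 probe set (1425772_at) pointed the other way at 1 week, at 0.19 ± 0.24 (-0.21 in females and 0.58 in males), and gave -0.36 ± 0.24 at 8 weeks. Another Col4a4 probe set (1440250_at) measured 10.16 and 9.77, then 10.07 and 9.83, then 9.41 and 9.28. It stood -0.62 ± 0.14 from control at 8 weeks and -0.61 ± 0.14 from 1 week, and with a trended, robust spread it passed in both (limma adjusted p = 0.0221 and 0.0366). Col4a5 measured 9.72 and 10.34, then 9.73 and 10.39, then 9.64 and 10.04, with differences of 0.02 ± 0.14 and -0.19 ± 0.14 that left the groups overlapping. Col4a6, its X-linked neighbour and the chain of smooth muscle basement membranes, measured 7.41 and 7.55, then 7.82 and 7.80, then 7.21 and 7.07. It lay above control at 1 week (0.33 ± 0.14) and below it at 8 weeks (-0.34 ± 0.14). The durations differed by -0.67 ± 0.14 (limma adjusted p = 0.145), and by -0.88 ± 0.19 on its second probe set.

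Type VI collagen, the beaded filament type, is assembled from the products of Col6a1, Col6a2 and Col6a3. Col6a2 measured 11.00 and 10.85 in control, 11.20 and 11.18 at 1 week, and 10.68 and 10.47 at 8 weeks. The 3 groups did not overlap, with 1 week highest and 8 weeks lowest. It was 0.26 ± 0.13 above control at 1 week, -0.35 ± 0.13 from it at 8 weeks, and -0.62 ± 0.13 between the durations (limma adjusted p = 0.151). Its second probe set gave 0.29, -0.33 and -0.62, and both passed between the durations with a trended, robust spread (limma adjusted p = 0.0191 and 0.0333). Col6a3 measured 10.82 and 10.57, then 10.82 and 10.83, then 10.34 and 10.24. Both 8 week pools were the lowest, -0.41 ± 0.14 from control and -0.53 ± 0.14 from 1 week. With a trended, robust spread Col6a3 passed in both (limma adjusted p = 0.049 and 0.0373). Col6a1, beside Col6a2 on chromosome 10, measured 10.39 and 10.45, then 10.63 and 10.61, then 10.53 and 10.33. It stood 0.20 ± 0.14 above control at 1 week and overlapped it at 8 weeks (0.01 ± 0.14), so the 3 chains were not alike in size at 8 weeks. The difference between the chains was not tested.

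**Figure D4:**
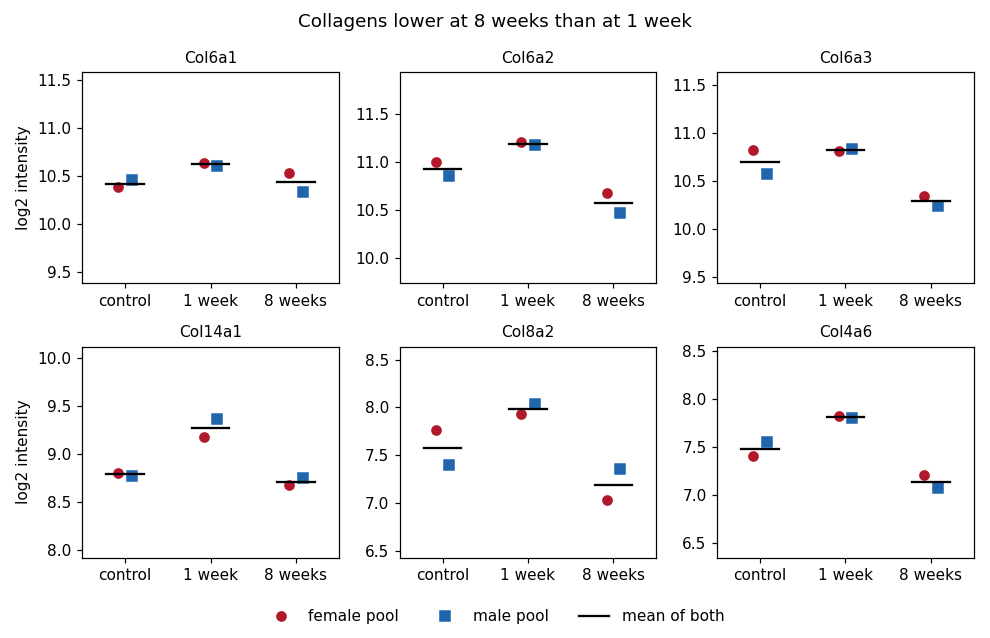
Log2 intensity in each pool of 6 collagens, chosen after their values were seen, that were lower at 8 weeks than at 1 week in both sexes (circles female, squares male, line the mean of both). On these brightest probe sets Col6a2, Col6a3, Col8a2, Col4a6 and Col14a1 also lie below both controls at 8 weeks, while the 8 week pools of Col6a1 overlap control. The margin is small for Col14a1 and for the male pool of Col8a2, and a second Col14a1 probe set was 0.16 above control at 8 weeks.

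Among collagens that bind to fibril surfaces, Col14a1 (undulin, which spaces fibrils) measured 8.81 and 8.77 in control, 9.18 and 9.37 at 1 week, and 8.68 and 8.75 at 8 weeks. The 1 week pools stood apart by 0.48 ± 0.14, and the 8 week pools were back near control (-0.08 ± 0.14). The durations differed by -0.56 ± 0.14 (limma adjusted p = 0.167), and on a second probe set by -0.18. Against control that second probe set gave 0.34 at 1 week and 0.16 at 8 weeks. Col12a1 and Col16a1 overlapped control at both durations, with differences from -0.24 to 0.12. Col22a1, known from tissue junctions, measured 5.36 and 6.15, then 5.89 and 6.31, then 6.32 and 6.58, and was 0.70 ± 0.18 above control at 8 weeks (limma adjusted p = 0.127). Col9a1 and Col20a1 were dim and overlapped in all comparisons. In Col20a1 the 8 week female pool read 4.16 and the male pool 5.61.

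Col8a2, a short-chain collagen of vessel walls and the cornea, measured 7.77 and 7.39, then 7.93 and 8.04, then 7.03 and 7.36. It was 0.40 ± 0.21 above control at 1 week and differed by -0.79 ± 0.21 between 1 and 8 weeks (limma adjusted p = 0.179). The 1 week difference was 0.11 without the male control pool and 0.69 without the female one. Its partner chain Col8a1 measured 7.67 and 7.99, then 7.56 and 7.84, then 7.67 and 7.94, differences of -0.13 ± 0.13 and -0.02 ± 0.13. A dimmer probe set of Col8a1 (1418440_at) was instead 0.68 ± 0.15 above control at 8 weeks, without overlap.

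Of the transmembrane collagens, Col13a1, a cell adhesion collagen, measured 10.17 and 9.73 in control, 9.93 and 9.43 at 1 week, and 9.68 and 9.33 at 8 weeks. The 8 week pools lay below both controls, at a difference of -0.45 ± 0.13 (limma adjusted p = 0.154, and 0.0459 with a trended, robust spread). Col23a1 measured 9.42 and 9.43, then 8.96 and 9.46, then 9.66 and 10.04. Its brightest probe set was 0.43 ± 0.17 above control at 8 weeks, but another (1429210_at) gave -0.53 ± 0.17, so no direction is given for this gene. Col25a1, a neuronal collagen, measured 5.49 and 6.74, then 6.24 and 7.12, then 6.17 and 6.58. Its groups overlapped, with males above females in each, but it had the highest 1 week difference among the other collagens, 0.57 ± 0.23 (0.75 in females and 0.39 in males, limma adjusted p = 0.901). That difference was 0.27 without the female control pool and 0.87 without the male one. Col17a1, of hemidesmosomes, overlapped control throughout. Col7a1, the anchoring fibril collagen, also overlapped control, at -0.15 ± 0.19 and -0.17 ± 0.19.

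Markers of several cell types, and of dividing cells, also differed between the groups. Over all genes 25% were lower than control in both sexes at 8 weeks, and 29.3% were lower than at 1 week. For 9 smooth muscle markers the median difference was 0.22 at 1 week and -0.43 at 8 weeks, with 8 lower in both sexes at 8 weeks and 9 lower than at 1 week. Their summed deposited intensity was 11836 and 9347 in control, 12994 and 11831 at 1 week, and 8377 and 7043 at 8 weeks. Myh11, smooth muscle myosin, differed by -1.51 ± 0.39 at 8 weeks (limma adjusted p = 0.127). For 9 cardiac muscle markers, which mark heart or pulmonary vein muscle in a lung sample, the 8 week median was -1.61. Their sums were 12600 and 11662, then 14366 and 16628, then 2509 and 5959. For 7 pericyte markers the medians were 0.07 and -0.24, with sums of 4228 to 4441 in control, 3806 to 4335 at 1 week and 3312 to 3324 at 8 weeks. The 10 fibroblast markers, none a collagen, had medians of 0.03 and -0.05 and sums of 24234 to 26043, 22958 to 26052 and 20108 to 24328. Between the durations their median was -0.31, with 6 of the 10 lower in both sexes and 1 higher. The 7 measured macrophage markers had a median of 2.17 at 8 weeks, with sums of 856 to 1659 in control, 1225 to 2301 at 1 week and 5018 to 7077 at 8 weeks. The 6 mesothelial markers had medians of 0.56 at 1 week and -0.08 at 8 weeks, with sums of 1033 and 2462, then 1870 and 3107, then 1318 and 1531. Of 8 endothelial markers 6 were lower in both sexes at 8 weeks (median -0.16), with sums of 17779 to 20160 in control, 17431 to 18309 at 1 week and 14210 to 16669 at 8 weeks. All 7 proliferation markers were higher than control in both sexes at both durations, against 32.6% of all genes at 1 week and 42.2% at 8 weeks. The medians of these 7 markers were 0.96 at 1 week and 1.46 at 8 weeks. Their sums were 519 and 467, then 768 and 1092, then 1032 and 1432. At 8 weeks 1 of them, Ube2c, passed (1.39 ± 0.13, limma adjusted p = 0.047), against 0.318% of all genes. No list held a gene at the floor on all arrays except the cartilage list, with 1. The part of these cells in the collagen differences was not tested.

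Genes that make, crosslink, bind or break down collagen were read from a list of 55, of which 43 were measured. At 1 week 26 were higher (60.5%) and 7 lower (16.3%) in both sexes (median 0.13), against 32.6% and 21.1% of all genes. In limma 0 passed, as for 0% of all genes. At an unadjusted p below 0.05 there were 2 (4.54% of all genes), and with a trended, robust spread 0. At 8 weeks 21 were higher (48.8%) and 6 lower (14.0%) in both sexes (median 0.07), against 42.2% and 25% of all genes. In limma 2 passed, both higher, against 0.318% of all genes. There were 10 at an unadjusted p below 0.05 (20.1% of all genes) and 6 with a trended, robust spread (7.09% of all probe sets). Between the durations 13 were higher (30.2%) and 12 lower (27.9%) in both sexes (median 0.01), against 40.8% and 29.3% of all genes. In limma 0 passed (0% of all genes). There were 8 at an unadjusted p below 0.05 (17% of all genes) and 4 with a trended, robust spread (2.78% of all probe sets). The 2 that passed at 8 weeks were Mmp8, the neutrophil collagenase, and Mmp9, a gelatinase that cuts type IV and denatured collagen. Mmp8 measured 5.56 and 6.36 in control, 6.06 and 6.49 at 1 week, and 7.67 and 8.17 at 8 weeks. It rose by 1.96 ± 0.16 at that time (limma adjusted p = 0.047). Mmp9 measured 6.75 and 7.26, then 6.70 and 7.23, then 8.10 and 8.96, and rose by 1.52 ± 0.16 (limma adjusted p = 0.048). For both genes the 8 week pools stood above all others. Each passed under 10 of 19 alternatives, with limma adjusted p from 0.00568 to 0.282 for Mmp8 and from 0.00652 to 0.284 for Mmp9. Both calls were lost with least squares, when dim probe sets were kept, when sex was left out of the model and when the fit held 4 arrays. They were also lost without any 1 pool other than the 8 week male (adjusted p from 0.087 to 0.241). Timp1, an inhibitor of these proteases, measured 6.81 and 6.84, then 7.20 and 7.82, then 9.42 and 8.90. Its 8 week difference of 2.34 ± 0.29 missed the threshold (limma adjusted p = 0.0576). Timp3, another inhibitor, was instead lower than control in both sexes at 1 week (-0.20 ± 0.19) and at 8 weeks (-0.49 ± 0.19, limma adjusted p = 0.222). Ctsk, the collagenolytic cathepsin K, was 1.19 ± 0.19 above control at 8 weeks (limma adjusted p = 0.075).

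By role, the 9 breakdown and uptake genes had medians of 0.37 at 1 week and 0.51 at 8 weeks, with 0.14 and 0.071 in females and 0.53 and 0.96 in males. The 4 crosslinking genes had medians of 0.30 and 0.25. Lox, the main lysyl oxidase, was 0.22 ± 0.14 above control at 1 week and 0.62 ± 0.14 at 8 weeks (limma adjusted p = 0.113), and Loxl1 was 0.50 ± 0.19 and 0.36 ± 0.19 above. The 14 genes of prolyl and lysyl modification had medians of 0.12 and 0.06. Plod2, the telopeptide lysyl hydroxylase, was the lowest of the list at 8 weeks, at -0.67 ± 0.17 (limma adjusted p = 0.126), while Plod1 stood 0.54 ± 0.20 above control. Serpinh1, the collagen chaperone HSP47, was 0.22 ± 0.15 above control at 1 week and 0.03 ± 0.15 at 8 weeks. Creb3l1, a factor that promotes type I procollagen transcription, measured 6.67 and 5.65, then 7.26 and 7.14, then 7.30 and 6.68. It was the highest of the list at 1 week, 1.04 ± 0.24 above control (limma adjusted p = 0.894). The 8 receptors had medians of 0.02 and -0.07, and the lowest of them at 1 week was Ddr2, a fibrillar collagen receptor kinase, at -0.24 ± 0.13. The 4 propeptide cleavage genes had medians of -0.02 and -0.06, with Bmp1, the C-proteinase, 0.31 ± 0.15 above control at 8 weeks.

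The sexes were compared in a model with an interaction of transgene (both durations together) and sex. Of 27022 probe sets 0 passed in limma (lowest limma adjusted p 0.99995), and 0 collagen probe sets had an unadjusted p below 0.05. Differences between the durations counted as spread in that model, and each sex had a single control pool. It therefore could not show that the sexes responded alike. The control labels also differed between the sexes, FVB/N for females and SM22-rtTA alone for males. In the main model the spread is how far the female and male differences disagree, so it mixes variation between pools with any difference between the sexes, and these cannot be told apart.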

How the data were processed

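The deposited table held array intensity on a linear scale, per the file headers, with 10 as its lowest value. The authors' summary and scaling of the probes were not given in the labels or headers. Biotin was built in by in vitro transcription, per the labels' protocols.

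The arrays were quantile normalized, a floor was set at the 20th percentile (intensity 15.46), and the deposited intensity was put on the log2 scale. Probe sets with a mean above the 40th percentile of means (log2 5.15) were kept, 27022 of 45037. Symbols came from the platform annotation (34945 probe sets with 1, 932 with several, 9160 with none), and all 42 collagen symbols matched RefSeq. A gene stood on its brightest kept probe set. limma 3.58.1 (R 4.3.3) fitted group and sex over 6 arrays, with 2 residual and 2.77 prior degrees of freedom, and Benjamini-Hochberg adjustment over all kept probe sets (threshold 0.05). P-values measure only the spread between these pools. Named genes were, in each class and comparison, the 3 highest and the 3 lowest that differed the same way in both sexes, plus a fixed set of types I, III, IV, V, VI, XV and XVIII. The fit was tested on simulated data with planted changes larger than any collagen difference given here. That test does not show whether changes of the size seen here could be called. Other scalings, floors, filters, probe set choices, moderation and leaving out each pool were tried. Members and lists were chosen with earlier results of these data known.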

Additional observations from a re-analysis of the deposited data

How the results depend on the processing

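With 2 pools a group, no collagen difference had a replicate pool of the same sex. Dim signal limits genes such as Col9a1, Col11a2, Col17a1 and Col20a1. Of 1280 gene values under alternatives, 26 reversed (25 of them where the reported size was under 0.2) and 5 newly passed, all with a trended, robust spread, which called 4 collagen probe sets at 8 weeks and 4 between the durations. Of the class medians 38 moved by more than the pools' spread and 142 did not. Many of these medians and gene values could not change in size. Dropping the sex term, fitting only the 4 arrays compared or changing the moderation leaves every difference as it was. So does leaving out a pool of the group not compared. These counts therefore overstate how stable the values were. Centring each array on its median shifted the median of all genes at 8 weeks from 0.08 to 0.20, and the values as deposited shifted it to -0.08.

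As deposited, the 8 week medians were -0.32 (basement membrane) and -0.29 (other), and the medians between durations -0.20 (fibrillar) and -0.27 (basement membrane). Col1a2 (-0.063) and Col6a1 (-0.071) reversed at 8 weeks, and Col4a1 (-0.015) and Col4a2 (-0.033) between durations. With centring the 8 week medians were 0.37, -0.045 and -0.014 and those between durations -0.016, -0.088 and -0.039. Col4a2 (0.013) reversed at 1 week, Col4a2 (0.16) and Col5a1 (0.015) at 8 weeks, and Col4a4 (0.026) and Col5a2 (0.027) between durations. With no filter the 8 week median of other collagens was -0.020 and the fibrillar median between durations -0.083. With the filter at the 60th percentile they were -0.17 and -0.26. Without suffixed probe sets the 8 week medians were 0.39, -0.12 and -0.020 and the fibrillar median between durations -0.087. With probe sets averaged to 1 value per gene, the fibrillar median was 0.38 at 8 weeks and -0.074 between durations, the basement membrane median between durations -0.28, and Col4a4 at 1 week (0.013) and Col5a1 at 8 weeks (0.093) reversed. With Col15a1 and Col18a1 counted as other collagens the basement membrane median at 1 week was -0.023. With the probe set of smallest p, the fibrillar medians were 0.50, 0.61 and -0.20, the basement membrane medians -0.24 at 8 weeks and -0.27 between durations, and Col23a1 (-0.53) and Col5a1 (0.38) reversed at 8 weeks. The causes were not tested.

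Leaving out each pool in turn, the fibrillar median ran from 0.26 to 0.44 at 1 week and from 0.01 (without the male control) to 0.33 (without the female control) at 8 weeks. The basement membrane median ran from -0.031 (without the 1 week male) to 0.12 at 1 week and from -0.21 to -0.12 at 8 weeks, and that of other collagens from -0.23 (without the male control) to -0.030 (without the female control) at 8 weeks. Between durations the 3 medians ran from -0.23 to -0.11, -0.24 to -0.12 and -0.23 to -0.059. Single genes that reversed were Col4a4 (-0.28 to 0.013) and Col18a1 (-0.013 to 0.23) at 1 week. At 8 weeks they were Col5a1 (-0.34 to 0.057), Col6a1 (-0.10 to 0.12), Col1a1 (-0.12 to 0.45), Col1a2 (-0.049 to 0.10) and Col4a2 (-0.055 to 0.016). Between durations they were Col15a1 (-0.27 to 0.062) and Col4a4 (-0.24 to 0.081). Other wide ranges were Col5a3 at 8 weeks (0.43 to 1.18) and Col4a3 at 8 weeks (-0.87 to -0.27). The model matched the pools by sex, and without the sex term 0 collagen probe sets passed in each comparison, as with it.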
